A study of Mus musculus with 31 samples.

Results

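The genes of serine synthesis and of the folate pathway that carries its carbon units were followed here through every library of the series. The 10 members were taken by gene symbol from the count tables: Phgdh, Psat1 and Psph of serine synthesis, Shmt1 and Mthfd1 of the cytosolic folate arm, and Shmt2, Mthfd2, Mthfd2l, Mthfd1l and Aldh1l2 of the mitochondrial folate arm. Each of the 3 tables held a row for all 10 of them, among 55487, 56980 and 56941 rows, and all 10 passed the filter on low counts in each table, so no member was left untested.

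Serine is made from the glycolytic intermediate 3-phosphoglycerate by Phgdh, the dehydrogenase of the first step, Psat1, the aminotransferase that follows, and Psph, the phosphatase that releases serine. Serine hydroxymethyltransferases then split serine into glycine and a carbon unit bound to tetrahydrofolate, Shmt1 in the cytosol and Shmt2 in mitochondria. In mitochondria the unit is oxidised by Mthfd2 or its relative Mthfd2l and released as formate by Mthfd1l, or burnt to carbon dioxide with a gain of NADPH by Aldh1l2. In the cytosol Mthfd1 recaptures formate and supplies folate-bound carbon for purine and thymidylate synthesis, and the mitochondrial enzymes are known to be high in many proliferating tumor cells.

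All libraries were RNA-seq of Panc02, a murine pancreatic adenocarcinoma line; in the rescue set the labels carry running line names instead. In the conditioned media set, WT spheroids grew in Matrigel with control medium (Ctrl, n = 3), with medium conditioned by unstimulated bone marrow-derived macrophages (M0-CM, n = 3) or with medium of macrophages polarized by IFNγ and LPS (M1-CM, n = 3). In the culture set, WT cells and cells given a Cxcl5 guide by lentiviral CRISPR under puromycin selection (Cxcl5-/-) grew as a layer (2D WT and 2D Cxcl5-/-, n = 3 each) or as spheroids (3D WT and 3D Cxcl5-/-, n = 3 each). In the rescue set, WT (n = 2) and Cxcl5-/- (n = 2) spheroids were sequenced with Cxcl5-/- spheroids that overexpressed a stabilized Hif1a mutant (Hif1a OE, n = 3) or Myc (Myc OE, n = 3) from a retrovirus, so both overexpression groups carry the Cxcl5 edit as well. Whether the edited lines were single clones is not given in the sources used here. The methods speak of biological replicates for the experiments in general, but no label ties a library to a culture of its own. The p-values then measure only the spread between these libraries, which may be technical.

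The libraries held 41542533 to 78498230 counts over genes. Cxcl5, the targeted gene, went with its label in the rescue set, at 64.2 and 67.7 CPM (counts scaled to a common TMM-adjusted library total) in WT and 36.6 and 40.2 in Cxcl5-/-, and against it in the 3D culture set, with 28.5, 24.5 and 28.0 CPM for 3D WT but 65.5, 40.9 and 45.4 for those labelled 3D Cxcl5-/-; transcript counts do not show whether the reading frame was cut. The 2 rescue WT libraries stood apart, with 27353 and 27506 rows of at least 10 counts against 19732 to 21560 in the other rescue libraries. Of 7 ductal markers, Epcam was at 0 in every group but 3D WT and rescue WT. The summed level of these markers ran from 217 CPM in a library of 3D Cxcl5-/- to 1097 CPM in one of 3D WT. Of 7 macrophage markers Adgre1, Itgam or both were at 0 in every group but rescue WT. The others were counted, and the summed level of the 7 ran from 28.0 CPM in a 2D WT library to 76.7 CPM in a Myc OE library. Of 5 tested, 4 were called higher and 0 lower for 3D WT against 2D WT, and 2 higher and 0 lower for 2D Cxcl5-/- against 2D WT. For rescue Cxcl5-/- against rescue WT, 1 was called higher and 3 lower of 6 tested. The part of this list was not tested. Scaling mattered in the 3D comparisons: with library totals in place of TMM factors the median log2 fold change of all genes moved from -0.039 to 0.348 for 3D Cxcl5-/- against 3D WT, from 0.002 to -0.212 for 3D WT against 2D WT, from -0.046 to 0.322 for the interaction and from -0.172 to -0.463 for Myc OE against rescue WT, so that changes below are relative to the TMM-scaled bulk of genes.

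In mouse genome build GRCm38 (GENCODE M21), the members are protein-coding genes at separate loci, and the values are gene counts that the authors derived with StringTie. Of the row identifiers, 99.53% in the media set, 91.48% in the culture set and 91.32% in the rescue set are in GENCODE M21. Rows outside it held 0.0809%, 12.9% and 16.2% of the counts. Levels per kilobase below use exon lengths of GENCODE M21 in all sets. Phgdh lies at chr3:98313170-98339990 on the minus strand, Psat1 at chr19:15904678-15947337 (minus), Psph at chr5:129765558-129787449 (minus), Shmt1 at chr11:60788104-60811718 (minus) and Mthfd1 at chr12:76255298-76319803 (plus). Shmt2 lies at chr10:127517123-127522444 (minus), Mthfd2 at chr6:83305691-83325908 (minus), Mthfd2l at chr5:90931117-91021368 (plus), Mthfd1l at chr10:3973118-4167081 (plus) and Aldh1l2 at chr10:83487450-83534140 (minus). The libraries were made with a stranded total RNA kit, but whether the counting used the strand is not given in the sources used here. Some reads can therefore not be assigned with certainty. On the opposite strand, 1056 exonic bases of Aldh1l2 are shared with D10Wsu102e (Nopchap1 in the newer tables), 452 of Psph with Cct6a, a chaperonin subunit gene, and 184 of Shmt1 with Smcr8. Phgdh has processed pseudogene copies, of which Gm7901, with 98.7% identity, held counts equal to 2.1% of those of Phgdh.

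Promoter windows from RefSeq (GRCm38.p6), 250 bases before to 50 bases after a start site, were found for 9 of the 10 members and are shown for the 3 members that held any of the motifs searched, since the members moved together in several comparisons. TGATGNAA, a core of the element bound by Atf4, occurred on either strand in 3.97% of all 32851 windows, and CACGTG, the E-box bound by Myc, in 7.15%. ACGTG, a form of the core of the hypoxia response element bound by Hif1a, occurred in 19.6% and lies inside every E-box of that form. Other forms of this core were not searched. Neither the Atf4 nor the Myc motif was in any member window. The form ACGTG occurred once in a Psat1 window and once in Psph and 2 times in Mthfd1l, in capitals below (CACGT where it reads on the opposite strand). The windows are chr19:15924573-15924872 (minus strand) for Psat1, chr5:129787204-129787503 (minus) for Psph and chr10:3972825-3973124 (plus) for Mthfd1l, each printed 5′ to 3′ along the gene.
Psat1: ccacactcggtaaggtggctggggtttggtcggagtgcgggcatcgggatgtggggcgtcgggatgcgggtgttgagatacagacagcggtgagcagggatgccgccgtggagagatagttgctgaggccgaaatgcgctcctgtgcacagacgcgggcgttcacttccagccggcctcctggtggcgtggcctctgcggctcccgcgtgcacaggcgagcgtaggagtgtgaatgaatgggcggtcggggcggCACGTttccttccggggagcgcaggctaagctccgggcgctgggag
Psph: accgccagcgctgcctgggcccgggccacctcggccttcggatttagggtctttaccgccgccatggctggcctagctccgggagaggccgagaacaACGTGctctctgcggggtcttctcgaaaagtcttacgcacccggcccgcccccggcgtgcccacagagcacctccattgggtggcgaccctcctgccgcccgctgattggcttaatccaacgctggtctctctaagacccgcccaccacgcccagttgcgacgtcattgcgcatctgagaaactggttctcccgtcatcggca
Mthfd1l: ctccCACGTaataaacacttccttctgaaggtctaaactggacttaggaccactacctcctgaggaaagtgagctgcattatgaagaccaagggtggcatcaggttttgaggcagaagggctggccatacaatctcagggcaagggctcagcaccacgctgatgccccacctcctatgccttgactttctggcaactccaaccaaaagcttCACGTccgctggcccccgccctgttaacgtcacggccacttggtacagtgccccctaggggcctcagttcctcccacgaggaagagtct
A match describes these letters and not bound protein, and the part of the motifs in the comparisons that follow was not tested.

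Per kilobase of exon, the serine synthesis genes Phgdh and Psat1 had the highest levels of the 10 in every group. In 2D WT, the mean level was 273 ± 20.4 CPM per kilobase (SD, n = 3) for Phgdh and 182 ± 2.38 for Psat1. Mthfd2 followed with 43.2 ± 1.71 CPM per kilobase and Mthfd1 with 34.0 ± 2.59, then Shmt2 with 25.8 ± 4.58, Mthfd1l with 21.7 ± 0.542 and Psph with 13.2 ± 0.433. The lowest levels were those of Shmt1, at 9.39 ± 0.358, Mthfd2l, at 4.47 ± 0.585, and Aldh1l2, at 2.02 ± 0.0104 CPM per kilobase, and only Shmt2 and its neighbour Mthfd1l lay within 1 SD of each other. In 3D WT the order differed: Mthfd1l followed these with 37.5 ± 3.13 CPM per kilobase, Mthfd1 fell back to 12.7 ± 1.59, next to Psph with 12.6 ± 1.15, and Aldh1l2, at 7.83 ± 0.519, stood above Shmt1, at 4.23 ± 0.602. In rescue Cxcl5-/- every member was at its lowest group mean of the rescue set, from 34.1 ± 1.89 CPM per kilobase (SD, n = 2) for Phgdh to 1.62 ± 0.0404 for Aldh1l2, though Mthfd2l, at 3.46 ± 0.062, lay within the spread of rescue WT, at 3.50 ± 0.232.

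**Figure D1:**
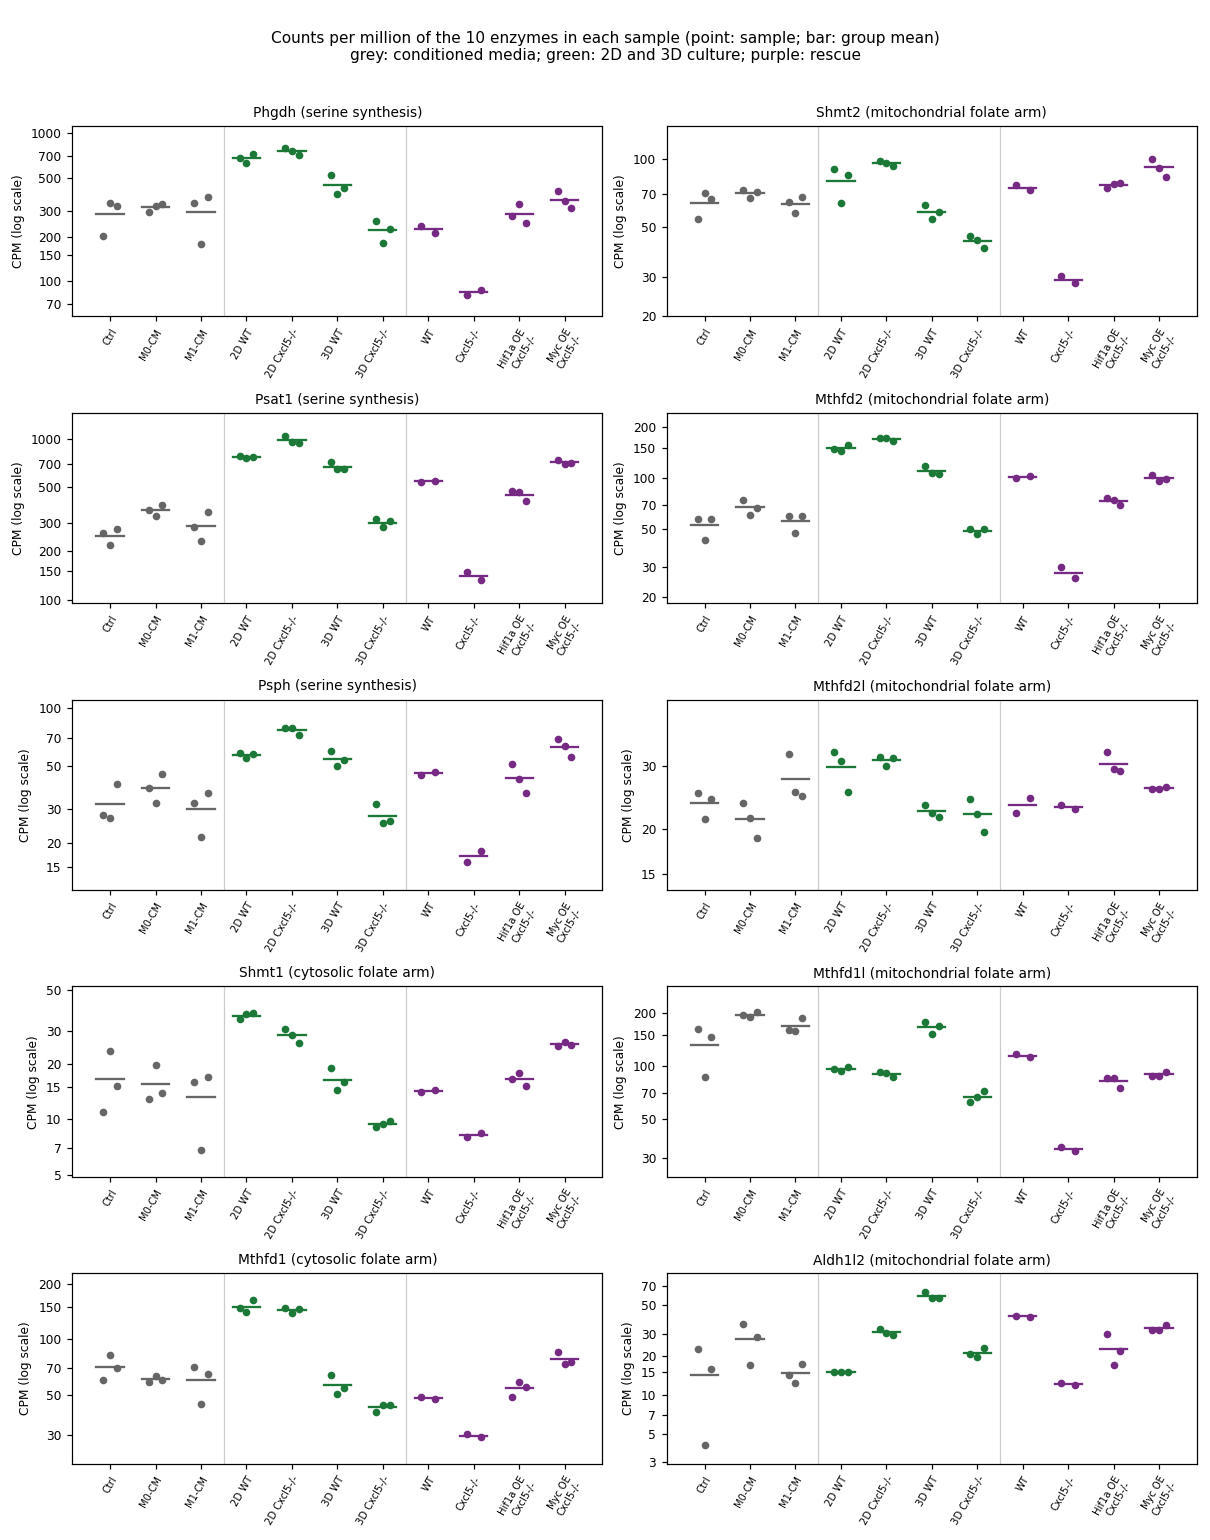
Level in CPM of each of the 10 enzymes in every library (log axis), by group, with points for libraries and bars for group means; colors mark the 3 count tables, which were scaled separately. From 2D WT to 3D WT, Aldh1l2 and Mthfd1l go up and the other members go down or overlap, and in the rescue set all members but Mthfd2l are clearly lowest in Cxcl5-/-.

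The question of what spheroid growth does to these genes was addressed by 3D WT against 2D WT. The members did not move as one: 2 were higher and 7 lower in 3D WT, against a background of 22.2% of all 21367 genes called higher and 22% called lower. The 2 that rose, Aldh1l2 and Mthfd1l, act at the end of the mitochondrial arm, and the strongest falls were those of the cytosolic genes Mthfd1 and Shmt1. The members' median log2 fold change was -0.42, against 0.00 for all genes, and with library totals as scaling 34.7% in place of 50.2% of the called genes were higher.

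Aldh1l2, the mitochondrial formyl-tetrahydrofolate dehydrogenase, was at 15.2, 15.1 and 15.2 CPM in 2D WT and at 63.3, 56.5 and 56.6 CPM in 3D WT. The 3 spheroid libraries all lay above the 3 layer libraries, a log2 difference of 1.95 ± 0.09 (SE) with edgeR adjusted p = 1.72e-09. Mthfd1l, which releases formate from the mitochondrial carrier, was at 95.8, 93.8 and 98.6 CPM in 2D WT and at 178, 151 and 169.6 in 3D WT. Its groups did not overlap either (log2 0.79 ± 0.08, edgeR adjusted p = 4.09e-06). Nopchap1, the gene opposite Aldh1l2, differed by 0.07 on the log2 scale (edgeR adjusted p = 0.756).

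Mthfd1, the cytosolic enzyme that takes up formate, was at 148, 141 and 164 CPM in 2D WT and at 64.1, 50.4 and 54.3 in 3D WT, lower in every spheroid library (log2 -1.42 ± 0.10, edgeR adjusted p = 6.77e-08). Shmt1 stood at 34.9, 37.0 and 37.4 CPM in 2D WT and at 19.0, 14.4 and 15.9 in 3D WT. That was again a full separation (log2 -1.15 ± 0.11, edgeR adjusted p = 1.36e-06), and Smcr8 opposite it fell by 0.67. Shmt2, the mitochondrial counterpart of Shmt1, was at 90.9, 64.0 and 85.6 CPM in 2D WT and at 62.6, 54.2 and 58.1 in 3D WT. The lowest 2D library lay just above the highest 3D library, and the log2 difference was -0.46 ± 0.11 (edgeR adjusted p = 0.00439).

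Mthfd2, the dehydrogenase of the mitochondrial arm, was at 149, 146 and 157 CPM in 2D WT and at 118, 108 and 107 in 3D WT, without overlap (log2 -0.44 ± 0.07, edgeR adjusted p = 0.000222). Its relative Mthfd2l was at 32.8, 31.0 and 25.3 CPM in 2D WT and at 23.4, 22.2 and 21.6 in 3D WT. The groups did not overlap (log2 -0.41 ± 0.11, edgeR adjusted p = 0.0066), but without 2D WT replicate 1 the difference was -0.31 and the adjusted p 0.0527. Of the serine synthesis genes, Phgdh was at 682, 628 and 729 CPM in 2D WT and at 528, 389 and 428 in 3D WT, a fall in every spheroid library (log2 -0.60 ± 0.13, edgeR adjusted p = 0.00208). Psat1 was at 781, 761.9 and 776 CPM in 2D WT and at 718, 648 and 650.0 in 3D WT. Its difference was small (log2 -0.20 ± 0.08, edgeR adjusted p = 0.0483) and was no longer called when any one of 8 of the 12 libraries was left out (2D WT replicates 1, 2 and 3, 2D Cxcl5-/- replicates 2 and 3, 3D WT replicates 2 and 3, and 3D Cxcl5-/- replicate 3), with values of -0.21 to -0.15, or under 5 other settings. Psph overlapped between the groups, with a log2 difference of -0.07 ± 0.10 (edgeR adjusted p = 0.612), and was called lower with library totals (-0.29, edgeR adjusted p = 0.00719). Cct6a, the gene opposite Psph, went from 810 ± 21.2 CPM in 2D WT to 372 ± 23.0 in 3D WT (SD, n = 3 each).

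Markers of proliferation fell with the members: all 6 of 6 (Mki67, Top2a, Cdk1, Ccnb1, Mcm5 and Pcna) were called lower in 3D WT, and their summed level was 3434 to 3520.5 CPM in 2D WT and 1539 to 1673 in 3D WT, with none at 0. Of 5 fibroblast markers 3 were called higher, with summed levels of 24.7 to 26.7 CPM in 2D WT and 72.9 to 75.8 in 3D WT. Of 5 ductal markers tested 4 were called higher and 1 lower, with summed levels of 546 to 593 CPM in 2D WT and 853 to 1097 in 3D WT. The part of these lists in the members' differences was not tested. In these lysates, fewer cells of a kind and less RNA per cell cannot be told apart. Around the members, the list of 18 folate cycle and transport genes had 6 called higher and 9 lower of 17 tested, with a median of -0.33. Aldh1l1, the cytosolic counterpart of Aldh1l2, rose from 7.40 ± 0.951 to 66.9 ± 9.40 CPM (SD, n = 3 each; log2 3.18 ± 0.13, edgeR adjusted p = 6.5e-10), while Tyms, thymidylate synthase, fell from 90.5 ± 4.36 to 36.3 ± 2.46 CPM (log2 -1.32 ± 0.08, edgeR adjusted p = 3.94e-08). Among 14 genes of glycine and serine use, 3 were called higher and 4 lower of 12 tested, with a median of -0.15, and Gcsh, the carrier protein of the glycine cleavage system, fell from 96.4 ± 6.89 to 47.9 ± 2.00 CPM (log2 -1.01 ± 0.12, edgeR adjusted p = 1.56e-05).

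The libraries labelled 3D Cxcl5-/- were compared with 3D WT to ask what the loss of Cxcl5 does in spheroids. All members but Mthfd2l were called lower, 9 of 10, and none was higher (none also at an unadjusted p under 0.05 or by DESeq2), against a background of 25.3% of all genes called lower and 19.7% called higher. The largest falls were in Aldh1l2 and Mthfd1l, the genes that had risen from 2D WT to 3D WT, a pair of comparisons that share the 3D WT libraries. The members' median log2 fold change was -1.0, against -0.04 for all genes; with library totals 75.8% in place of 43.9% of the called genes were higher.

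Aldh1l2 had 20.8, 19.7 and 23.2 CPM in the Cxcl5-/- spheroid libraries, against 56.5 to 63.3 in 3D WT, a log2 difference of -1.47 ± 0.09 (edgeR adjusted p = 2.97e-08). Mthfd1l was at 62.2, 66.4 and 72.0 CPM, against 151 to 178 in 3D WT (log2 -1.32 ± 0.08, edgeR adjusted p = 5.65e-08). Mthfd2 was at 50.2, 46.9 and 50.04 CPM, against 107 to 118 (log2 -1.18 ± 0.07, edgeR adjusted p = 4.93e-08). In all of them every library of one group lay apart from the other. Shmt2 was at 45.7, 43.9 and 40.2 CPM, against 54.2 to 62.6 in 3D WT, a smaller difference of -0.43 ± 0.11 on the log2 scale (edgeR adjusted p = 0.00675). Mthfd2l, at 24.3, 22.1 and 19.6 CPM against 21.6 to 23.4, overlapped between the groups (log2 -0.03 ± 0.11, edgeR adjusted p = 0.86).

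The serine synthesis genes fell to similar degrees. Psat1 was at 317, 282 and 308 CPM, against 648 to 718 in 3D WT (log2 -1.15 ± 0.08, edgeR adjusted p = 9.35e-08). Phgdh was at 257, 181 and 227 CPM, against 389 to 528 (log2 -1.01 ± 0.13, edgeR adjusted p = 3.59e-05). Psph was at 31.7, 25.2 and 25.9 CPM, against 50.03 to 59.9 (log2 -0.98 ± 0.10, edgeR adjusted p = 2.77e-06). None of these groups overlapped. Of the cytosolic genes, Shmt1 was at 9.06, 9.41 and 9.85 CPM, against 14.4 to 19.0 in 3D WT (log2 -0.80 ± 0.11, edgeR adjusted p = 5e-05). Mthfd1 was at 40.5, 44.1 and 43.9 CPM, against 50.4 to 64.1 (log2 -0.39 ± 0.10, edgeR adjusted p = 0.00418). The calls of Mthfd1 and Shmt2 depended on the scaling: with library totals their log2 differences were 0.00 and -0.04 and not called, and Mthfd2l was called higher (0.36, edgeR adjusted p = 0.0183), where the all-gene median was 0.348; with no filter on low counts neither Mthfd1 (-0.30) nor Shmt2 (-0.34) was called.

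All 6 proliferation markers were called lower here too, with summed levels of 829 to 915 CPM against 1539 to 1673 in 3D WT, and their part was not tested. Of 5 fibroblast markers 1 was called higher and 3 lower, with a summed level of 204 to 235 CPM against 72.9 to 75.8 in 3D WT, none at 0. Of 5 ductal markers tested 1 was called higher and 3 lower. Their summed level was 217 to 236 CPM against 853 to 1097 in 3D WT, with Cdh1 and Epcam at 0 in 3D Cxcl5-/-. The part of these lists was not tested. Nopchap1 rose by 0.54 on the log2 scale where Aldh1l2 fell, Cct6a fell by 0.63, Smcr8 rose by 0.35 and the Phgdh copy Gm7901 fell by 0.80. Of the 17 folate cycle and transport genes tested, 2 were called higher and 8 lower (median -0.18), and Aldh1l1 rose from 66.9 ± 9.40 to 121 ± 10.4 CPM (log2 0.85 ± 0.12, edgeR adjusted p = 5.02e-05). The 2 formyl-tetrahydrofolate dehydrogenases therefore moved in opposite directions. Of the 12 genes of glycine and serine use tested, 4 were called higher and 3 lower (median 0.05), and Gldc, the decarboxylase of glycine cleavage, fell from 3.03 ± 0.520 to 0.596 ± 0.132 CPM (log2 -2.34 ± 0.24, edgeR adjusted p = 4.37e-06).

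**Figure D2:**
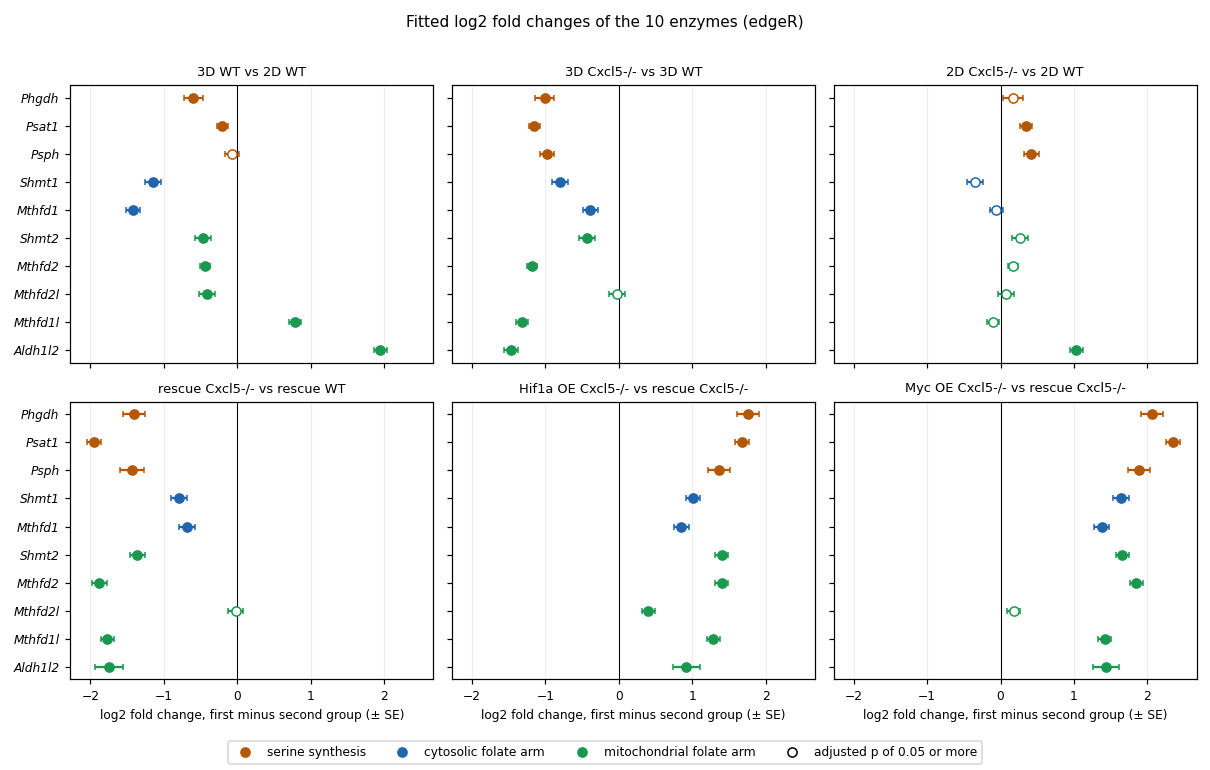
Fitted log2 fold changes (± SE) of the 10 enzymes in 6 comparisons; filled points passed an adjusted p under 0.05, and colors mark serine synthesis and the cytosolic and mitochondrial folate arms. Only Aldh1l2 (1.95) and Mthfd1l (0.79) are right of 0 for 3D WT against 2D WT, all filled points are left of 0 in both spheroid comparisons of Cxcl5-/- with WT, and all points are right of 0 for Hif1a OE and Myc OE against Cxcl5-/-.

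In 2D, where the same genotypes were compared as layers, the members were much less affected. Against a background of 3.86% of genes called higher and 3.17% called lower, 3 of the 10 members were higher in 2D Cxcl5-/- and none was lower (Shmt1 alone at an unadjusted p under 0.05, none by DESeq2). Aldh1l2 was at 32.9, 30.7 and 29.2 CPM in 2D Cxcl5-/-, clear of 15.1 to 15.2 in 2D WT (log2 1.03 ± 0.09, edgeR adjusted p = 5.14e-06). Psat1 was at 1042, 965 and 948 CPM against 761.9 to 781 (log2 0.35 ± 0.08, edgeR adjusted p = 0.013). Psph was at 78.9, 78.5 and 72.4 CPM against 55.1 to 58.7 (log2 0.42 ± 0.10, edgeR adjusted p = 0.0145). These 3 genes were higher in each library of 2D Cxcl5-/-. The Psat1 call was lost without 2D Cxcl5-/- replicate 1 (0.33, adjusted p = 0.0502 by edgeR) and the Psph call without 2D WT replicate 2 (0.41) or 2D Cxcl5-/- replicate 2 (0.42). The other 7 members had log2 differences of -0.35 to 0.26, with Shmt1, at 31.0, 28.5 and 26.0 CPM against 34.9 to 37.4, the lowest (-0.35 ± 0.11, edgeR adjusted p = 0.0639). None of the 6 proliferation markers was called, with summed levels of 3144 to 3266 CPM against 3434 to 3520.5 in 2D WT. Of the 12 genes of glycine and serine use tested, 2 were called higher and 1 lower. Gldc was lower here as in spheroids, at 0.887 ± 0.179 CPM against 3.74 ± 0.365 (SD, n = 3 each; log2 -2.07 ± 0.23, edgeR adjusted p = 7.11e-05). Sardh, sarcosine dehydrogenase, was higher, at 70.1 ± 3.17 CPM against 39.1 ± 3.94 (log2 0.84 ± 0.10, edgeR adjusted p = 9.95e-05).

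Between 2D Cxcl5-/- and the libraries labelled 3D Cxcl5-/-, all 10 members were called lower in 3D and none higher (none also at an unadjusted p under 0.05 or by DESeq2), against a background of 28.2% called lower and 28.7% called higher. The falls ranged from -1.79 ± 0.08 on the log2 scale for Mthfd2 (edgeR adjusted p = 6.93e-10) to -0.43 ± 0.08 for Mthfd1l (edgeR adjusted p = 0.000638). Aldh1l2, which rose with 3D growth in WT, fell here by 0.54 ± 0.09 on the log2 scale (edgeR adjusted p = 0.000119). The members' median was -1.53, against 0.11 for all genes.

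Whether genotype acted alike in layers and spheroids was tested directly as an interaction. It was negative and called for 8 of 10 members, against a background of 16.1% of genes with a called negative and 11.1% with a called positive interaction, and no member had a positive one (none also at an unadjusted p under 0.05 or by DESeq2). Aldh1l2 had the most negative value, -2.49 ± 0.12 on the log2 scale (edgeR adjusted p = 5.49e-08), since it was higher in 2D Cxcl5-/- and lower in 3D Cxcl5-/- than in the matching WT. Among the serine synthesis genes it was -1.50 ± 0.11 for Psat1, -1.4 ± 0.14 for Psph and -1.18 ± 0.19 for Phgdh (edgeR adjusted p = 1.18e-06, 1.06e-05 and 0.000474), and in the mitochondrial arm -1.35 ± 0.10 for Mthfd2 and -1.22 ± 0.12 for Mthfd1l (edgeR adjusted p = 1.75e-06 and 1.08e-05). Shmt2, at -0.69 ± 0.16 (edgeR adjusted p = 0.00589), and Shmt1, at -0.44 ± 0.15 (edgeR adjusted p = 0.0435), were smaller. The Shmt1 call was lost without 2D WT replicate 1 or 2, 2D Cxcl5-/- replicate 1 or 2, 3D WT replicate 1 or 3D Cxcl5-/- replicate 2, with values of -0.50 to -0.34. Mthfd1 (-0.33 ± 0.13, edgeR adjusted p = 0.0837) and Mthfd2l (-0.09 ± 0.15, edgeR adjusted p = 0.699) did not pass. With library totals, 77.1% in place of 40.9% of called interactions were positive, and 6 members stayed called.

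**Figure D3:**
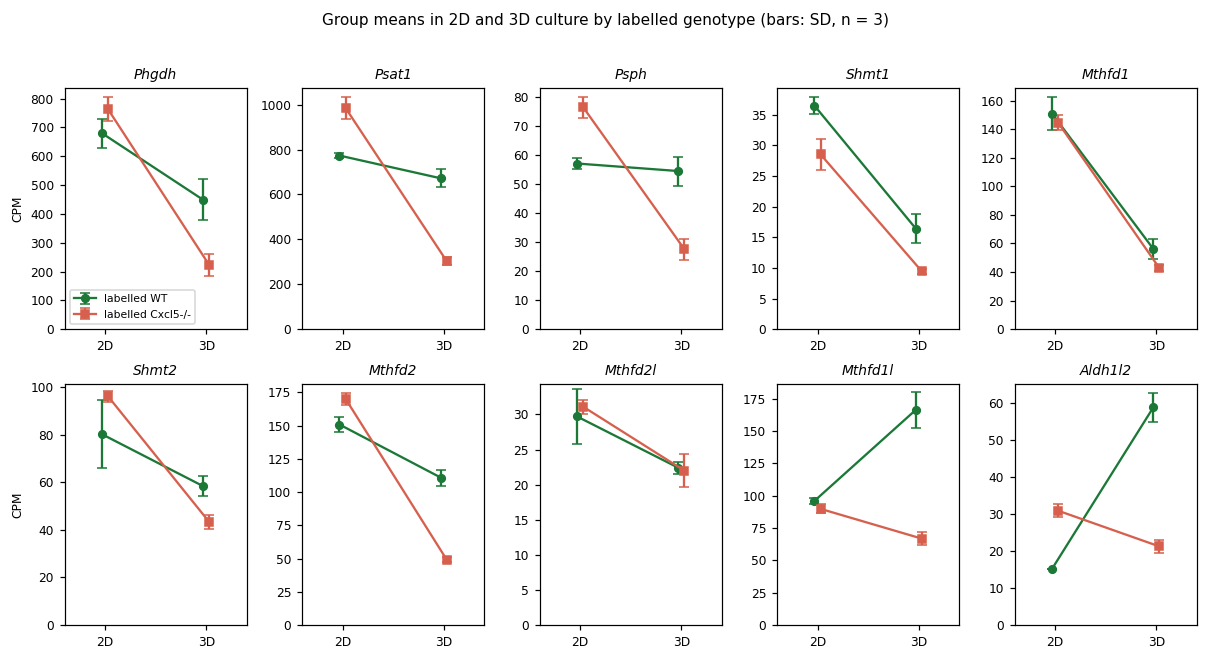
Mean CPM in 2D and 3D culture (linear axes from 0; bars are SD, n = 3) for libraries labelled WT and Cxcl5-/-. For Aldh1l2 the WT line rises from about 15.2 to between 56.5 and 63.3 CPM while the Cxcl5-/- line falls, for the serine synthesis genes the Cxcl5-/- line starts at or above WT in 2D and ends below it in 3D, and for Mthfd1 and Mthfd2l the lines run close to each other.

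The rescue set repeated the spheroid comparison with libraries whose Cxcl5 counts went with the label. Here 9 of 10 members were called lower in Cxcl5-/- than in WT, against a background of 24.3% of 28730 genes called lower and 17.6% called higher, and none was higher (none also at an unadjusted p under 0.05 or by DESeq2). The mitochondrial genes Mthfd2, Mthfd1l and Aldh1l2 and the serine synthesis gene Psat1 fell most, and the cytosolic genes least of those called. The members' median was -1.42, against -0.30 for all genes.

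Psat1 was at 543 and 551 CPM in WT and at 149.7 and 133 in Cxcl5-/- (log2 -1.95 ± 0.10, edgeR adjusted p = 2.15e-07). Phgdh was at 238 and 212 CPM in WT and at 81.4 and 88.1 in Cxcl5-/- (log2 -1.41 ± 0.15, edgeR adjusted p = 3.12e-05). Psph was at 44.8 and 46.7 CPM in WT and at 15.9 and 18.0 in Cxcl5-/- (log2 -1.43 ± 0.16, edgeR adjusted p = 3.32e-05). All 3 serine synthesis genes thus separated the groups by far more than the gap between replicates. In the mitochondrial arm, Mthfd2 was at 100.9 and 104 CPM in WT and at 29.9 and 25.8 in Cxcl5-/- (log2 -1.88 ± 0.10, edgeR adjusted p = 1.83e-07). Mthfd1l was at 117 and 113 CPM in WT and at 34.4 and 32.6 in Cxcl5-/- (log2 -1.77 ± 0.09, edgeR adjusted p = 1.96e-07). Aldh1l2 was at 41.0 and 40.7 CPM in WT and at 12.3 and 11.9 in Cxcl5-/- (log2 -1.75 ± 0.19, edgeR adjusted p = 3.77e-05). These 3 fell to similar extents, and Shmt2 somewhat less, from 76.8 and 73.0 CPM to 30.2 and 28.0 (log2 -1.36 ± 0.10, edgeR adjusted p = 1.76e-06). Mthfd2l, at 22.2 and 24.3 CPM in WT and 23.3 and 22.7 in Cxcl5-/-, overlapped (log2 -0.02 ± 0.10, edgeR adjusted p = 0.894). In the cytosolic arm, Shmt1 went from 13.99 and 14.3 CPM to 7.99 and 8.41 (log2 -0.79 ± 0.11, edgeR adjusted p = 0.000212) and Mthfd1 from 48.8 and 47.6 to 30.5 and 29.5 (log2 -0.68 ± 0.11, edgeR adjusted p = 0.000492).

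The 9 calls held with either of the rescue WT libraries left out. All 6 proliferation markers were lower as well, with summed levels of 509 to 571 CPM against 1306 to 1338 in WT, and 4 of 5 fibroblast markers were higher, at 269.7 to 271 CPM in sum against 22.4 to 25.8, with none at 0. Of 6 ductal markers tested 3 were lower, at 287 to 302 CPM in sum against 856 to 903, with Epcam at 0 in Cxcl5-/-. The part of these lists was not tested. Nopchap1 rose by 0.92 on the log2 scale, Smcr8 rose by 0.28, Cct6a fell by 0.88 and Gm7901 fell by 1.05. Of the 18 folate cycle and transport genes 2 were called higher and 4 lower (median -0.08, against -0.30 for all genes), with Sfxn3, of the sideroflexin family of mitochondrial amino acid carriers, at 137 ± 2.90 CPM in Cxcl5-/- and 37.3 ± 2.70 in WT (SD, n = 2 each; log2 1.87 ± 0.09, edgeR adjusted p = 1.3e-07). Of the 14 genes of glycine and serine use, 4 were called higher and 4 lower (median -0.09), with Sardh, sarcosine dehydrogenase, at 66.2 ± 0.548 CPM in Cxcl5-/- and 22.8 ± 0.211 in WT (log2 1.54 ± 0.11, edgeR adjusted p = 1.26e-06).

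Hif1a overexpression in Cxcl5-/- spheroids was set against Cxcl5-/- to ask whether it restores these genes. Hif1a itself was at 258, 296 and 243 CPM in Hif1a OE, above 144 and 133 in Cxcl5-/- (log2 0.94, edgeR adjusted p = 2.99e-05), below 304 and 324 in rescue WT (log2 -0.24, edgeR adjusted p = 0.0999) in every library. It overlapped the 241, 271 and 262 of Myc OE (log2 -0.04 for Myc OE against Hif1a OE, edgeR adjusted p = 0.826). Every one of the 10 members was called higher, against a background of 20.5% called higher and 15% called lower, and none was lower (none also at an unadjusted p under 0.05 or by DESeq2). Phgdh was at 277, 334 and 248 CPM in Hif1a OE, well above 81.4 and 88.1 in Cxcl5-/- (log2 1.76 ± 0.15, edgeR adjusted p = 4.84e-06). Psat1 was at 474, 469.7 and 413 CPM (log2 1.68 ± 0.10, edgeR adjusted p = 4.8e-07). Psph was at 51.2, 42.9 and 36.3 CPM (log2 1.36 ± 0.15, edgeR adjusted p = 2.88e-05). The serine synthesis genes were thus all above both Cxcl5-/- libraries in each Hif1a OE library. In the mitochondrial arm, Shmt2 was at 74.9, 77.3 and 78.6 CPM (log2 1.4 ± 0.09, edgeR adjusted p = 1.16e-06). Mthfd2 was at 76.2, 74.6 and 69.7 CPM (log2 1.4 ± 0.09, edgeR adjusted p = 8.78e-07). Mthfd1l was at 85.2, 85.2 and 74.9 CPM (log2 1.29 ± 0.09, edgeR adjusted p = 1.15e-06). Aldh1l2 varied more, at 29.6, 17.2 and 22.2 CPM, but stayed above 12.3 in each library (log2 0.92 ± 0.18, edgeR adjusted p = 0.00183). Mthfd2l, at 32.7, 29.5 and 29.0 CPM against 22.7 and 23.3, rose least (log2 0.40 ± 0.09, edgeR adjusted p = 0.00403) and was at 0.18 and not called with library totals. Of the cytosolic genes, Shmt1 was at 16.5, 17.7 and 15.2 CPM (log2 1.01 ± 0.10, edgeR adjusted p = 2.15e-05) and Mthfd1 at 48.4, 59.0 and 54.9 (log2 0.85 ± 0.10, edgeR adjusted p = 5.71e-05). The members' median was 1.32, against 0.16 for all genes; with library totals 43.6% in place of 57.8% of the called genes were higher.

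Myc overexpression gave 9 of 10 members called higher than in Cxcl5-/-, with a median of 1.65 against 0.11 for all genes, where the background was 21.6% called higher and 18% called lower, and no member was lower (none also at an unadjusted p under 0.05 or by DESeq2). Psat1 was at 741, 702 and 714 CPM in Myc OE (log2 2.35 ± 0.10, edgeR adjusted p = 4.64e-08). Phgdh was at 406, 349 and 314 CPM (log2 2.07 ± 0.15, edgeR adjusted p = 1.27e-06). Psph was at 69.4, 63.6 and 55.5 CPM (log2 1.89 ± 0.15, edgeR adjusted p = 2.37e-06). These were the largest rises among the members together with that of Mthfd2. Mthfd2 was at 105, 97.1 and 99.2 CPM (log2 1.85 ± 0.09, edgeR adjusted p = 1.17e-07). Shmt2 was at 100.5, 91.9 and 83.6 CPM (log2 1.66 ± 0.09, edgeR adjusted p = 3.06e-07). Shmt1 was at 24.9, 26.3 and 25.3 CPM (log2 1.64 ± 0.11, edgeR adjusted p = 6.81e-07), so that the cytosolic and the mitochondrial hydroxymethyltransferase rose to like degrees. Mthfd1 was at 85.0, 73.5 and 75.5 CPM (log2 1.38 ± 0.10, edgeR adjusted p = 1.71e-06). Mthfd1l was at 87.9, 88.1 and 92.8 CPM (log2 1.42 ± 0.09, edgeR adjusted p = 4.66e-07). Aldh1l2 was at 31.9, 32.4 and 34.9 CPM (log2 1.44 ± 0.18, edgeR adjusted p = 6.82e-05). Every library of Myc OE lay above both Cxcl5-/- libraries for each of them, and also for Mthfd2l, whose 25.8, 25.9 and 26.2 CPM gave a difference that did not pass (log2 0.18 ± 0.09, edgeR adjusted p = 0.134). How many of all genes separate in this way was not counted. With library totals 36.3% in place of 54.6% of the called genes were higher.

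The 6 proliferation markers were all called higher in both overexpression groups, with summed levels of 1135 to 1232 CPM in Hif1a OE and 1337 to 1531 in Myc OE against 509 to 571 in Cxcl5-/-. Fibroblast markers were lower, 4 of 5 in Hif1a OE and 3 of 5 in Myc OE, at 29.2 to 45.2 and 148 to 170.3 CPM in sum against 269.7 to 271. Of 6 ductal markers tested, 4 were higher and 1 lower in Hif1a OE, at 705 to 837 CPM in sum against 287 to 302 in Cxcl5-/-. In Myc OE 2 were higher, and the sum, at 267 to 312, overlapped that of Cxcl5-/-. The part of these 3 lists was not tested. Nopchap1 fell by 1.18 in Hif1a OE and fell by 0.90 in Myc OE on the log2 scale, opposite to Aldh1l2; Cct6a rose by 1.35 and 0.94 with Psph, Gm7901 rose by 1.32 and 1.58 with Phgdh, and Smcr8 differed by -0.08 and 0.00 without passing. Among the folate cycle and transport genes, 6 were called higher and 2 lower in Hif1a OE (median 0.21) and 7 higher and 4 lower in Myc OE (median 0.30), of 18 each. Tyms rose in both, from 17.0 ± 0.768 CPM in Cxcl5-/- (SD, n = 2) to 35.0 ± 3.12 (n = 3; log2 1.04 ± 0.10, edgeR adjusted p = 1.65e-05) and 47.3 ± 2.90 (n = 3; log2 1.47 ± 0.10, edgeR adjusted p = 1.21e-06). Aldh1l1 fell in both, from 56.8 ± 3.83 CPM to 42.2 ± 4.51 (log2 -0.43 ± 0.11, edgeR adjusted p = 0.00771) and 25.6 ± 1.84 (log2 -1.15 ± 0.11, edgeR adjusted p = 6.59e-06). Among the 14 genes of glycine and serine use, 3 were called higher and 5 lower in Hif1a OE (median -0.24) and 4 higher and 1 lower in Myc OE (median 0.06). Gcat, which cleaves the threonine breakdown product to glycine, rose from 7.73 ± 0.801 CPM to 35.9 ± 6.52 (log2 2.22 ± 0.17, edgeR adjusted p = 2.73e-06) and 31.0 ± 3.55 (log2 2.00 ± 0.17, edgeR adjusted p = 3.34e-06).

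Myc OE and Hif1a OE were compared directly, since a larger difference from the shared Cxcl5-/- libraries does not by itself separate them. Of the 10 members 7 were higher in Myc OE, against a background of 9.54% called higher and 9.73% called lower, and none was called lower (Mthfd2l alone at an unadjusted p under 0.05, none by DESeq2). Psat1 differed most (log2 0.67 ± 0.08, edgeR adjusted p = 0.000158), followed by the cytosolic genes Shmt1 (0.63 ± 0.09, edgeR adjusted p = 0.000446) and Mthfd1 (0.53 ± 0.09, edgeR adjusted p = 0.00141) and by Psph (0.53 ± 0.12, edgeR adjusted p = 0.011) and Mthfd2 (0.45 ± 0.08, edgeR adjusted p = 0.00149). For these 5 genes every Myc OE library lay above every Hif1a OE library, as also for Aldh1l2, Shmt2 and Mthfd1l. For Mthfd2l every Myc OE library lay below. The share of all genes that separate in this way was not counted. The calls of Aldh1l2 (0.52 ± 0.15, edgeR adjusted p = 0.0341) and Shmt2 (0.26 ± 0.08, edgeR adjusted p = 0.041) were less firm: that of Aldh1l2 was lost without Hif1a OE replicate 2 or 3 or any Myc OE library (0.35 to 0.55), and that of Shmt2 without any single rescue library but Myc OE replicate 3 (0.19 to 0.27). Mthfd1l (0.13 ± 0.07, edgeR adjusted p = 0.252), Phgdh (0.32 ± 0.12, edgeR adjusted p = 0.101) and Mthfd2l (-0.23 ± 0.08, edgeR adjusted p = 0.0702) did not pass. Of the 6 proliferation markers 3 were higher in Myc OE, and Mthfd2l was called lower with library totals (-0.34, edgeR adjusted p = 0.0324), while 36.1% in place of 49.5% of the called genes were higher under that scaling.

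The overexpression groups were also set against rescue WT. In Hif1a OE, 1 member was called higher and 4 lower, against a background of 13.9% higher and 10.3% lower: the mitochondrial genes Aldh1l2 (log2 -0.83 ± 0.17, edgeR adjusted p = 0.00521), Mthfd1l (-0.49 ± 0.08, edgeR adjusted p = 0.00157) and Mthfd2 (-0.48 ± 0.08, edgeR adjusted p = 0.00226) were below WT. Psat1 (-0.27 ± 0.09, edgeR adjusted p = 0.0473) was lost without any single library but Hif1a OE replicate 2 and Myc OE replicate 1 (-0.31 to -0.21), and Mthfd2l, the 1 higher (0.39 ± 0.09, edgeR adjusted p = 0.0102), without rescue WT replicate 1 (0.33). In Myc OE, 6 members were called higher and 1 lower, against a background of 17.1% higher and 14.7% lower. The cytosolic genes Shmt1 (log2 0.85 ± 0.10, edgeR adjusted p = 0.000111) and Mthfd1 (0.69 ± 0.10, edgeR adjusted p = 0.0004) and the serine synthesis gene Phgdh (0.66 ± 0.14, edgeR adjusted p = 0.00421) were above WT, while Mthfd1l (-0.35 ± 0.08, edgeR adjusted p = 0.00692) was below it. Psat1 (0.39 ± 0.09, edgeR adjusted p = 0.00768), Psph (0.46 ± 0.14, edgeR adjusted p = 0.0306) and Shmt2 (0.30 ± 0.09, edgeR adjusted p = 0.0277) were higher but rested on single libraries: the count of called members was 3 without rescue WT replicate 1 and 4 without rescue WT replicate 2, and 5 without Myc OE replicate 1 or 2. Mthfd1l passed neither without rescue WT replicate 1 (-0.32) nor without replicate 2 (-0.37), Psat1 not without rescue WT replicate 1 (0.39), and Psph (0.37 to 0.50) and Shmt2 (0.22 to 0.34) not without either rescue WT library or Myc OE replicate 1 or 2. With library totals the share of called genes that were higher was 38.1% in place of 57.5% for Hif1a OE and 28.5% in place of 53.7% for Myc OE, and with DESeq2 size factors 40.5% and 42.2%. Library totals also made Mthfd2 (-0.32) and Aldh1l2 (-0.60) called lower in Myc OE than in WT.

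The cytosolic and mitochondrial arms were compared inside each library by the count ratio of 2 enzyme pairs, a measure that library scaling does not touch. The log2 ratio of Mthfd2 over Mthfd1 was 0.01, 0.04 and -0.06 in 2D WT and 0.88, 1.10 and 0.97 in 3D WT, so the ratio was higher by 0.98 in spheroids, or 1.98-fold, where both genes had fallen and Mthfd1 by more. In the libraries labelled 3D Cxcl5-/- it was 0.31, 0.09 and 0.19, a difference of -0.79 from 3D WT. In the rescue set it was 1.05 and 1.12 in WT and -0.03 and -0.19 in Cxcl5-/-, a difference of -1.20. Hif1a OE, at 0.66, 0.34 and 0.34, and Myc OE, at 0.31, 0.40 and 0.39, lay above Cxcl5-/- by 0.56 and 0.48 and below both WT libraries. The groups of each of these comparisons did not overlap. In 2D Cxcl5-/- the ratio was 0.23, 0.31 and 0.17, above 2D WT by 0.23. The conditioned media groups, also WT spheroids, did not show the high ratio of 3D WT and rescue WT. Their values were -0.05, -0.93 and -0.26 in Ctrl, 0.35, -0.04 and 0.14 in M0-CM and -0.23, 0.11 and -0.1 in M1-CM. All of these lay below every 3D WT and rescue WT library. The gene identifiers of the media set also differ from those of the culture and rescue sets, and the cause was not tested.

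For the hydroxymethyltransferases the order was not the same. The log2 ratio of Shmt2 over Shmt1 was 1.38, 0.79 and 1.19 in 2D WT and 1.72, 1.91 and 1.87 in 3D WT, higher by 0.71, where both genes had fallen and Shmt1 by more. In the libraries labelled 3D Cxcl5-/- it was higher again, at 2.33, 2.22 and 2.03, by 0.36. In the rescue set it went the other way, from 2.46 and 2.35 in WT to 1.92 and 1.73 in Cxcl5-/-, a difference of -0.57. The genotype difference of this ratio in spheroids thus had opposite signs in the culture and rescue sets, while that of Mthfd2 over Mthfd1 was negative in both. Hif1a OE was at 2.18, 2.12 and 2.37, above Cxcl5-/- by 0.40, and Myc OE at 2.01, 1.81 and 1.72 overlapped Cxcl5-/- (0.02) and lay below Hif1a OE, with a difference of -0.38. In 2D Cxcl5-/- the ratio was 1.66, 1.76 and 1.85, above 2D WT by 0.63. None of the 16 ratio tests could pass: in exact two-sided permutation tests the smallest p that 3 against 3 or 2 against 3 libraries allow is 0.1, and 0.333 for 2 against 2, and each comparison whose groups did not overlap reached that p (0.16 and 0.444 after Benjamini-Hochberg adjustment over the 16).

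**Figure D4:**
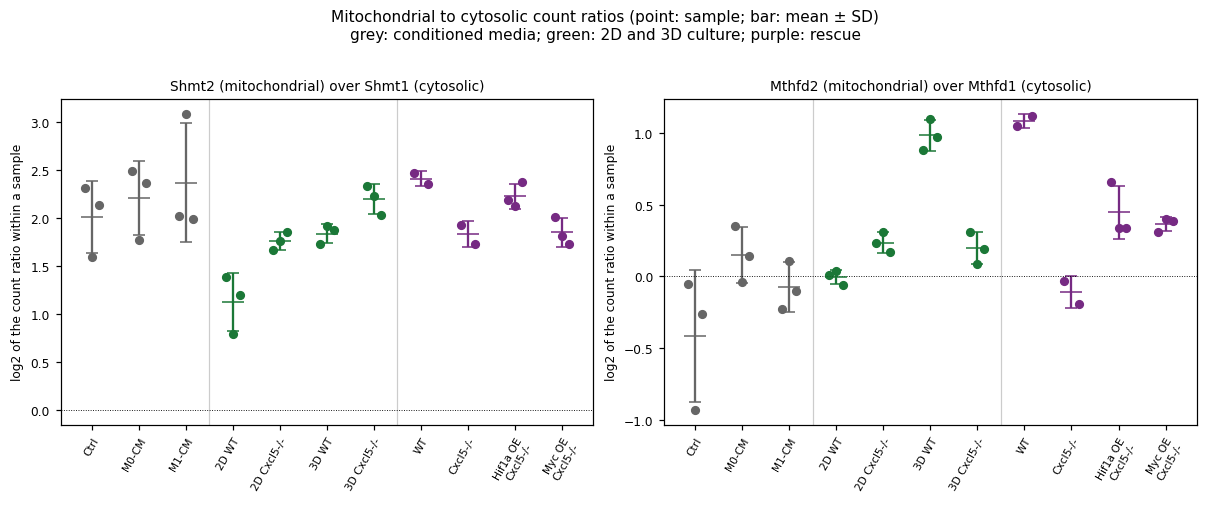
Log2 count ratios of Shmt2 over Shmt1 and of Mthfd2 over Mthfd1 within each library, by group, with mean ± SD. The Mthfd2 over Mthfd1 ratio is near 1 in 3D WT and rescue WT and between -0.19 and 0.31 in both spheroid Cxcl5-/- groups. It is between -0.93 and 0.35 in the conditioned media groups, which are WT spheroids as well. The Shmt2 over Shmt1 ratio is highest among the culture groups in 3D Cxcl5-/-.

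Medium conditioned by macrophages moved none of the members past the threshold. In data simulated with the spread of this set, the fit called 59% of genes changed 4-fold and 7% of those changed 2-fold. An absent call here therefore does not show an absent change. For M1-CM against Ctrl, 0 of 10 members were called by edgeR (none at an unadjusted p under 0.05 and none by DESeq2), where 0.0156% of 19207 genes were called higher and 0% lower (586 and 317 at an unadjusted p under 0.05, and 75 and 31 called by DESeq2). The log2 differences ran from -0.32 ± 0.37 for Shmt1 to 0.36 ± 0.21 for Mthfd1l, and all members overlapped between the groups. For M1-CM against M0-CM, again 0 of 10 were called by edgeR (1 higher at an unadjusted p under 0.05, none by DESeq2), with 0.0156% of genes called higher and 0% lower (309 and 189 unadjusted, 22 and 12 by DESeq2), and differences of -0.87 ± 0.50 for Aldh1l2 to 0.37 ± 0.16 for Mthfd2l. For M0-CM against Ctrl none was called by edgeR either (2 higher at an unadjusted p under 0.05, none by DESeq2), with 0% of genes called higher and 0% lower (412 and 157 unadjusted, 18 and 4 by DESeq2). The spread inside the groups was wide: Aldh1l2 was at 22.8, 4.09 and 15.97 CPM in Ctrl, and Shmt1 at 15.96, 6.84 and 17.0 CPM in M1-CM, so that one library of each group lay far below the other two. In M0-CM, Psat1, at 359, 331 and 389 CPM, lay above 218 to 275 in Ctrl, Mthfd1l, at 195, 190.4 and 203, above 85.9 to 162, and Mthfd2, at 74.6, 61.2 and 66.6, above 43.3 to 58.0, with edgeR adjusted p = 1 for each. In M1-CM, Mthfd1l and Mthfd2 lay below M0-CM (log2 -0.22 and -0.26) and Mthfd2l above it (0.37), with edgeR adjusted p = 0.989 for each. For these media comparisons too, the share of all genes that separate was not counted.

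Atf4, a stress-responsive transcription factor known to act on serine synthesis genes, was lower in Cxcl5-/- spheroids of both sets. It was at 401, 399 and 377 CPM in 3D WT and at 179.6, 126 and 150.5 in 3D Cxcl5-/- (log2 -1.37, edgeR adjusted p = 4.87e-07), and at 448 and 429 CPM in rescue WT and 122 and 119 in Cxcl5-/- (log2 -1.86, edgeR adjusted p = 5.87e-07). It was higher again at 241, 276 and 219.6 CPM in Hif1a OE and at 328, 297 and 291 in Myc OE, and differed by -0.09 between 3D WT and 2D WT (edgeR adjusted p = 0.552). In the culture set Hif1a was at 363, 336 and 407 CPM in 3D WT and at 175, 140.0 and 163 in 3D Cxcl5-/- (log2 -1.21, edgeR adjusted p = 4.13e-07). Myc was at 34.1, 36.9 and 33.9 against 9.12, 11.4 and 10.7 (log2 -1.75, edgeR adjusted p = 8.94e-08). In the rescue set Myc was at 49.3 and 46.1 CPM in WT, at 22.3 and 20.02 in Cxcl5-/-, at 548, 525 and 397 in Myc OE and at 23.0, 26.8 and 25.6 in Hif1a OE, which lay above both Cxcl5-/- libraries but did not pass (log2 0.25, edgeR adjusted p = 0.175). Nfe2l2 was called lower in Cxcl5-/- spheroids of both sets too. It was at 181, 191 and 196 CPM in 3D WT and at 144, 142 and 157 in 3D Cxcl5-/-. In the rescue set it was at 186.6 and 186.2 CPM in WT and at 154 and 149.9 in Cxcl5-/-. Both overexpression groups lay between 146 and 160.2 CPM, with no call against Cxcl5-/-.

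As a description over 11 group means, centred within each table, the members were alike to different degrees. Phgdh, Psat1, Psph, Shmt2 and Mthfd2 had pairwise Pearson r of 0.95 to 0.99. Shmt1 had 0.85 to 0.93 with those 5, Mthfd1 had 0.78 to 0.89 with them, and Shmt1 and Mthfd1 had 0.97 with each other. Mthfd1l and Aldh1l2 had 0.85, while Mthfd1 and Aldh1l2 had 0.00. Among 13351 genes, those most like Phgdh were Mrpl22 (0.993), Pold1 (0.992) and Hint1 (0.991), those most like Mthfd2 were Tcp1 (0.991), Gars and Nsa2 (0.988 each), and those most like Shmt2 were Dera and Gm14648 (0.981 each) and Gm6311 (0.98). The groups share libraries' scaling and the same few treatments, so that many genes that follow the same group means can reach such values.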

How the data were processed

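RNA-seq counts were used for 31 libraries in 3 tables. The authors aligned reads to the mouse genome with HISAT2 and summarised them with StringTie as unnormalized counts per gene; tool versions and the strand setting are not given in the sources used here. Counts were tested as deposited with edgeR 4.0.16 (R 4.3.3): filterByExpr by group, TMM scaling, glmQLFit and glmQLFTest, 1 fit per table that holds every group, and p-values adjusted by Benjamini-Hochberg across every gene that was tested; a call is an adjusted p under 0.05. Tests were run within a table, since tables were scaled separately. CPM values use TMM-scaled totals, and levels between genes are per kilobase of union exon (GENCODE M21). SE is the absolute log2 fold change over the square root of F. Ratios added 0.5 to each count and were compared by exact two-sided permutation tests. DESeq2 1.42.0, other scalings and filters, the compared groups alone, a replicate block and each library left out were the alternatives. Members and lists were chosen with earlier results of these data known. Whether groups overlap was examined for members and listed genes only, so no share over all genes goes with it. From each list, the text names some of the called genes with the largest changes in each direction. The fit was tested on simulated data. A result that is withheld is not reported here.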

Additional observations from a re-analysis of the deposited data

Results flagged for a closer look

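The genotype effect on 8 members differed between 3D and 2D culture by the interaction test of the edgeR fit, which is what singled them out. The interaction on the log2 scale was -2.49 for Aldh1l2, -1.50 for Psat1, -1.40 for Psph, -1.35 for Mthfd2, -1.22 for Mthfd1l, -1.18 for Phgdh, -0.69 for Shmt2 and -0.44 for Shmt1. For Aldh1l2, Psat1 and Psph the 2D and 3D effects were called in opposite directions, while for the other 5 only the 3D effect was called. All rest on libraries labelled 3D Cxcl5-/- whose Cxcl5 counts went against that label. In the same libraries Hif1a and Myc were lower than in 3D WT (log2 -1.21 and -1.75), as they were in rescue Cxcl5-/- against rescue WT (-1.18 and -1.17), and all 6 proliferation markers had a called negative interaction as well, the part of which was not tested.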

How the results depend on the processing

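Of 86 called results of single members, recomputed as 1532 values, 1442 kept their call and direction, 89 lost the call and 1 turned. That one was Mthfd1 in 3D Cxcl5-/- against 3D WT, at 0.00 with library totals. Requiring an absolute log2 fold change above 1 left 3 members called for 3D WT against 2D WT, 5 for 3D Cxcl5-/- against 3D WT, 1 for 2D Cxcl5-/- against 2D WT, and 0 each for Myc OE against Hif1a OE and for Hif1a OE and Myc OE against rescue WT. How many of all genes pass this limit was not counted, so these counts cannot be set against a background. Leaving out single libraries gave 3 to 5 called members for Hif1a OE against rescue WT and 3 to 7 for Myc OE against rescue WT, lowest without rescue WT replicate 1. The Shmt2 over Shmt1 difference ranged from -0.01 to 0.54 for M1-CM against Ctrl (lowest without M1-CM replicate 2) and from -0.07 to 0.11 for Myc OE against Cxcl5-/- (-0.06 without Myc OE replicate 1, -0.07 without Cxcl5-/- replicate 2), and that of Mthfd2 over Mthfd1 from -0.13 to 0.03 for Myc OE against Hif1a OE (0.03 without Hif1a OE replicate 1). The cause was not tested. In the media set, 3 genes were called by edgeR and 75 higher and 31 lower by DESeq2 for M1-CM against Ctrl, 3 against 22 and 12 for M1-CM against M0-CM, and 0 against 18 and 4 for M0-CM against Ctrl.

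Groups of 2 or 3 libraries cannot show whether replicate numbers pair the samples. Deviations of same-numbered libraries correlated at -0.236 to 0.359 in the media set, -0.0958 to 0.18 in the culture set and -0.0245 to 0.0498 in the rescue set. In the media set, same-numbered Ctrl and M0-CM libraries had 0.359, 0.246 and 0.0714, and the other pairs of these groups -0.279 to 0.0359. Same-numbered M1-CM libraries had -0.108, -0.236 and 0.0616 with Ctrl and -0.0457, -0.173 and 0.157 with M0-CM. With the replicate number as a block, 7 in place of 8 members had a called interaction (Shmt1, still at -0.44, no longer passed), 8 in place of 7 differed between Myc OE and Hif1a OE, and the other counts of called members did not move. Groups of 2 or 3 libraries limit all ratio tests, and the rescue WT group rests on 2 libraries that stood apart.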
